A study of Mus musculus with 21 samples.

Results

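Products of mature olfactory sensory neurons (OSN) are described here through 10 genes in every sorted cell group of the study: Omp, S100a5, Umodl1, Stoml3, Stom, Cartpt, Faim2, Kcnk9, Slc17a6 and Pde4a. All of them were present in both deposited expression tables, which share 22786 genes. The genes were selected on their RNA levels in these libraries, with their fall under the Mex3a fusion and under the driver of immature neurons in view. For these genes those contrasts are therefore a description, with no test. So is MexHT OSN against negative cells with the gg8 driver, which uses the same OSN libraries. OSN against negative cells with both drivers also use OSN libraries of those contrasts, so limma's calls there are printed as a description. In every comparison fitted across all genes 9 of the 10 averaged 1 TPM or more, and Kcnk9 did not.

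The study sorted cells of the main olfactory epithelium, the sensory sheet of the nose, by the reporter that the mice carried. The HT mice carried tetO-HyperTRIBE-mCherry, an RNA-editing domain with a red reporter, and the MexHT mice carried tetO-Mex3a_HyperTRIBE_mCherry, in which the RNA-binding protein Mex3a is joined to that domain. The tetO construct is switched on by a tTA driver, which was gg8-tTA (expressed in immature OSN) or gg8-tTA plus OMP-tTA (so that mature OSN express it too). All mice carried gg8-tTA, and there were no HT mice with gg8-tTA alone among the libraries used. Cells positive for mCherry are called OSN below, and the mCherry-negative cells of the same mouse were its internal control. With both drivers there were 3 HT OSN, 3 HT negative, 6 MexHT OSN and 5 MexHT negative libraries, and with gg8 alone 2 MexHT OSN and 2 MexHT negative libraries. OMP-tTA is expressed from the promoter of Omp, one of the genes described. The library names give one date to all gg8 libraries and another to all gg8+OMP libraries, and each set has its own table, so driver, library date and table cannot be told apart. Ages were not given in the labels.

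An OSN is born from a progenitor at the base of the epithelium and passes through an immature stage of axon growth before it matures. On maturing it builds cilia, detects odorants through a cyclic AMP cascade that opens cation channels, and signals to the olfactory bulb with glutamate. The genes here were listed as products of the mature stage. They encode a marker and modulator of the odorant response, a calcium sensor, an enzyme that degrades cyclic AMP and membrane organisers of the stomatin family. The others encode a leak potassium channel, a vesicular glutamate transporter, a neuropeptide precursor, an extracellular protein and an inhibitor of cell death.

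RNA level is given as TPM, in which counts are divided by gene length and scaled to the same total in each library. Libraries held 7529648 to 15358109 recovered counts. Mex3a checked the labels of the OSN libraries with both drivers. It was at 328 to 1271 TPM in the 6 MexHT and 23.96 to 61.5 TPM in the 3 HT libraries, with no overlap. In negative cells of gg8+OMP mice it was at 57.8 to 207 TPM (MexHT) and 29.3 to 74.3 TPM (HT), which overlapped. The negative cells of gg8 mice held 211 and 101 TPM. As labelled products of mature OSN, 9 genes were abundant in HT OSN (means of 299 to 3199 TPM), whereas Kcnk9 was near 0. The 10 genes held 0.971% to 1.45% of all TPM in HT OSN and 0.166% to 0.59% in MexHT OSN with both drivers. In MexHT OSN with gg8 alone they held 0.035% to 0.0574%, while the negative cells of the same mice held 0.799% to 1.45%. In negative cells of gg8+OMP mice the share was 0.59% to 1.23% (HT) and 0.0396% to 0.765% (MexHT). The name OSN for the mCherry-positive cells thus does not mean that negative cells lacked these products. In such sorted bulk samples, fewer cells of a type and less RNA per cell cannot be told apart.

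**Figure D1:**
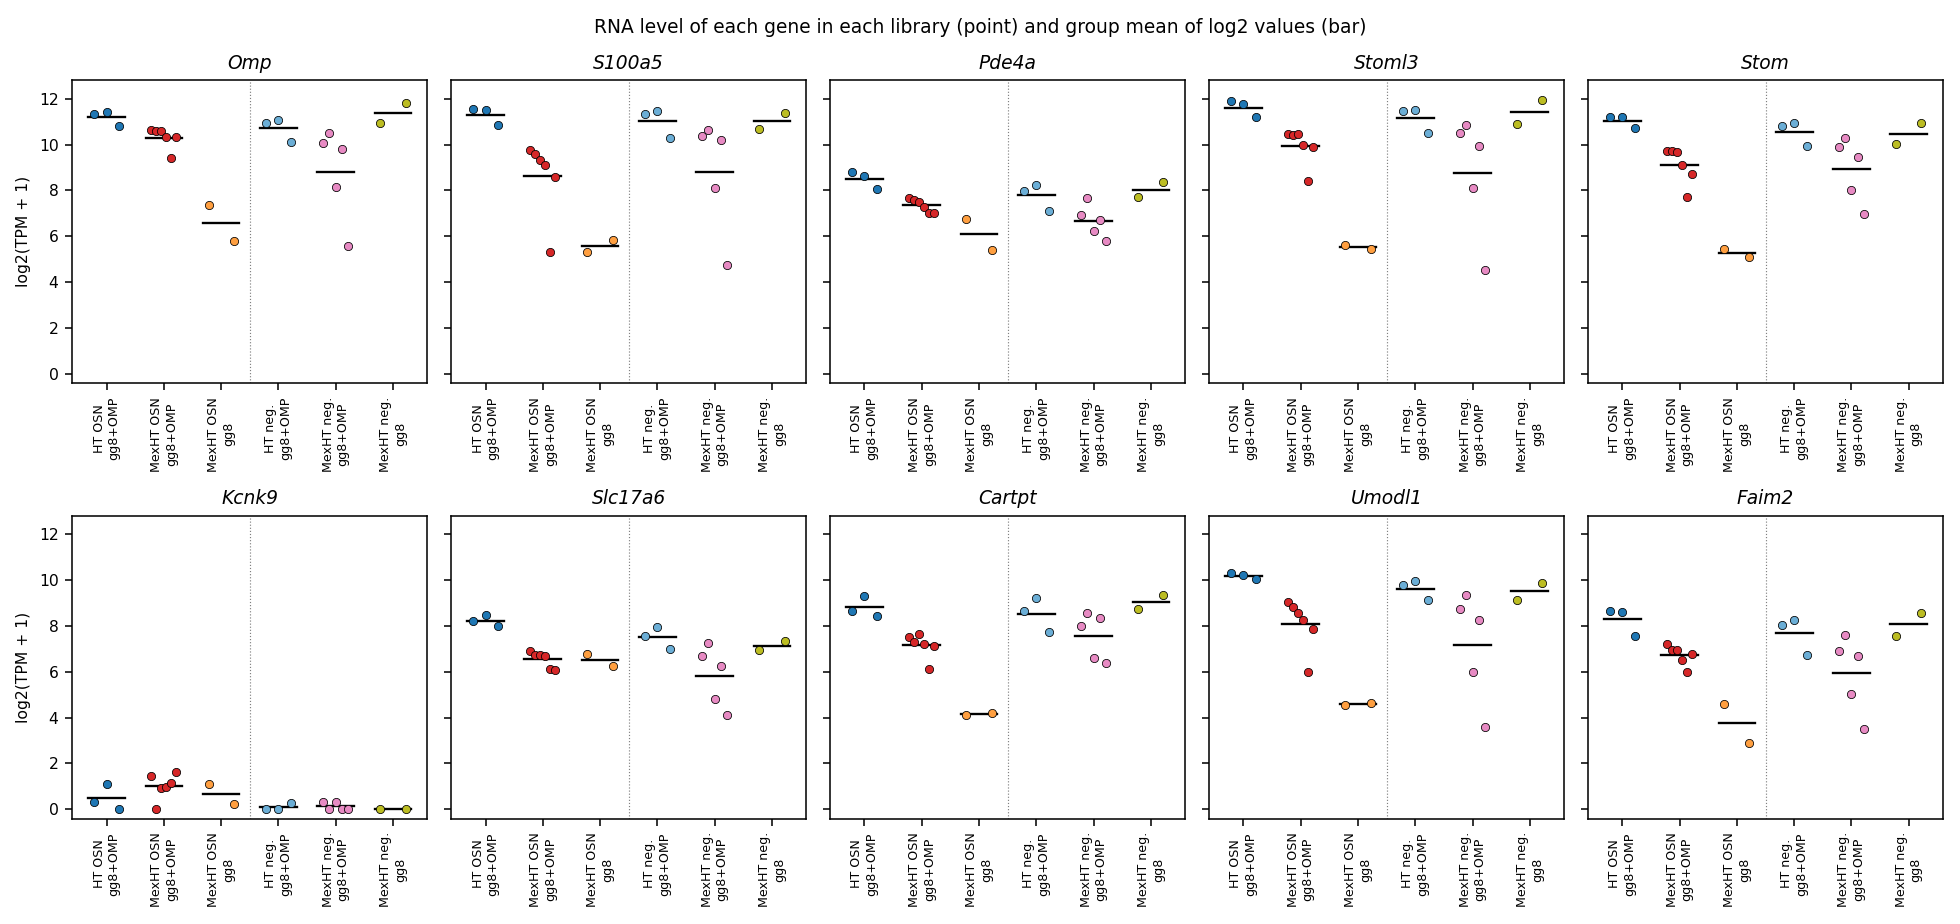
Level of each gene as log2(TPM + 1) in each library (points) with the group mean of the log2 values (bars), by group, OSN left of the dotted line and mCherry-negative cells right of it. In MexHT OSN with gg8 alone, 7 genes sit far below the other groups' means, Slc17a6 does not, and Kcnk9 lies near 0 everywhere.

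In HT OSN the highest mean level was that of Stoml3 (3199 ± 774 TPM, SD, n = 3), followed by S100a5 (2581 ± 629), Omp (2361 ± 502), Stom (2118 ± 396) and Umodl1 (1152 ± 103). Then came Cartpt (462 ± 153), Pde4a (370 ± 92.0), Faim2 (327 ± 123) and Slc17a6 (299 ± 48.0). Between neighbours this order held in every one of the 3 libraries except for Cartpt over Pde4a and Faim2 over Slc17a6, which each held in 2 of 3. Cartpt (404 TPM) was also just below Faim2 (405 TPM) in replicate 1. In MexHT OSN with both drivers Omp came first, above Stoml3 in 6 of 6 libraries, and S100a5 had moved from the second to the fourth place. In MexHT OSN with gg8 alone Slc17a6 and Pde4a came next after Omp in mean level, above S100a5, Stoml3 and Stom. This order of means did not hold in both libraries. In replicate 2 Slc17a6 (74.8 TPM) was above Omp (53.8 TPM), and S100a5 (56.0 TPM) and Stoml3 (43.0 TPM) were above Pde4a (41.8 TPM).

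Omp encodes olfactory marker protein, a cytoplasmic protein of mature OSN that shapes the odorant response. Its gene lies on chromosome 7 at 98143359 to 98145502 (GRCm38, minus strand), inside the span of Capn5 on the same strand, with 0 shared exon bases. Omp stood at 2593, 2704 and 1785 TPM in HT OSN. In the 6 MexHT OSN libraries it ran from 682 to 1597 TPM with a median of 1396. Every MexHT library was therefore below every HT library. With gg8 alone Omp was at 164 and 53.8 TPM in OSN and at 1937 and 3561 TPM in the negative cells of those mice. In HT negative cells it was at 1986, 2159 and 1093 TPM. In MexHT negative cells of gg8+OMP mice it was at 1076, 1431, 279, 892 and 46.9 TPM, a 30.5-fold range between mice. The lowest of these came from mouse 5.

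S100a5 encodes an EF-hand calcium-binding protein known in OSN for RNA that depends on neuronal activity. It lies on chromosome 3 at 90608523 to 90611780 (plus strand). S100a5 was at 2972, 2917 and 1855 TPM in HT OSN, and at 39.3 to 870 TPM (median 591) in MexHT OSN. None of the 9 genes above the filter varied more among the 6 MexHT OSN libraries, with a 22.1-fold range. Mouse 5 gave the lowest value, and the next lowest library was at 377 TPM. In negative cells S100a5 was at 2542, 2815 and 1256 TPM in HT mice and at 1307, 1584, 272, 1166 and 25.7 TPM in MexHT mice. With gg8 alone it was at 39.2 and 56.0 TPM in OSN and at 1619 and 2619 TPM in negative cells. The OSN library of mouse 5 of the gg8+OMP set, at 39.3 TPM, thus lay at the level of the gg8 OSN libraries.

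Pde4a encodes a phosphodiesterase that degrades cyclic AMP, found in OSN outside the cilia. It lies on chromosome 9 at 21165714 to 21213248 (plus strand). Pde4a was at 443, 399 and 267 TPM in HT OSN and at 126 to 204 TPM (median 166) in MexHT OSN. In negative cells it was at 253, 301 and 138 TPM in HT mice and at 120, 199.5, 73.7, 102 and 55.3 TPM in MexHT mice. With gg8 alone it was at 107 and 41.8 TPM in OSN and at 207 and 331 TPM in negative cells. Its range was 1.61-fold among MexHT OSN and 3.61-fold among MexHT negative libraries, the narrowest of the 9 genes in both groups.

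Among RefSeq promoters (250 bases before to 50 after a gene start, GRCm38.p6), 7 of the 10 genes had at least 1, and Omp, Faim2 and Kcnk9 had none in the table used. The palindromic motifs searched, chosen after these promoters were seen, read the same on both strands: TGACGTCA (the cyclic AMP response element), CCCNNGGG (the core bound by Ebf factors, which are active in OSN) and TAATTA (a homeodomain core). They do not overlap each other in the windows shown. TGACGTCA was in 1.79% of all 32851 promoters and, here, in that of Cartpt. CCCNNGGG was in 13.7% of promoters, and in those of Umodl1 and Cartpt and 1 of the 3 of Pde4a. TAATTA was in 5.29%, and in one of the 2 promoters of Slc17a6. A match is a description of the letters and no measure of binding. The windows below come from the 4 genes with a match, and not every match is shown. The Cartpt window lies in an untranslated region of a GENCODE transcript. Capitals mark the motif, read 5′ to 3′ on the gene's strand.
Umodl1, chr17:30954497-30954564, plus strand, upstream of the annotated gene: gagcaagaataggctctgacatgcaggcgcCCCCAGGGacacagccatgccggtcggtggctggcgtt
Pde4a, chr9:21183915-21183982, plus strand, in an intron before an internal start: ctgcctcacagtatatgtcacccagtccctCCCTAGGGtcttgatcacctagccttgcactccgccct
Slc17a6, chr7:51624526-51624591, plus strand, in an intron before an internal start: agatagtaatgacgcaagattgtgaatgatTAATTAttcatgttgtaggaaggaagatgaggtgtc
Cartpt, chr13:99900778-99900805, minus strand, before its RefSeq start: cggcgggcatTGACGTCAaacggcagcg

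Stoml3 and Stom encode membrane proteins of the stomatin family, which bind cholesterol and organise membrane microdomains. Stoml3 (chromosome 3, 53488653 to 53508502, plus strand) is known from OSN. Stom (chromosome 2, 35313986 to 35336976, minus strand) is stomatin itself, also abundant in red blood cells. Stoml3 was at 3755, 3527 and 2315 TPM in HT OSN and at 342 to 1421 TPM (median 1172) in MexHT OSN. Stom was at 2372, 2320.5 and 1661 TPM in HT OSN and at 209 to 846 TPM (median 680.3) in MexHT OSN. Neither gene overlapped between the constructs. With gg8 alone Stoml3 was at 48.7 and 43.0 TPM in OSN against 1902 and 3903 TPM in negative cells. Stom was at 42.7 and 33.2 TPM in the same OSN against 1039 and 1943 TPM. The 2 genes parted in MexHT negative cells: Stoml3 was at 1427, 1833, 271, 971 and 22.2 TPM, an 82.6-fold range, and Stom at 935, 1244, 256, 691 and 125 TPM, a 9.97-fold range. HT negative cells held Stoml3 at 1429 to 2939 TPM and Stom at 982 to 1939 TPM.

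Kcnk9 encodes a background potassium channel that helps to set the resting potential. It lies on chromosome 15 at 72501089 to 72546340 (minus strand). Its level went against a mature-neuron product in all libraries: 0.233, 1.18 and 0 TPM in HT OSN, 0 to 2.13 TPM in MexHT OSN, and 1.17 and 0.17 TPM in MexHT OSN with gg8 alone. Every negative library held it under 1 TPM, at 0 or 1 recovered count. The highest count in any library was 7, and 16 of 21 libraries were at or below a floor of 3 counts. Summed over libraries it had 26 counts in 6 MexHT OSN and 2 counts in 5 MexHT negative libraries with both drivers. It entered no test and no fold is given.

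Slc17a6 encodes the vesicular glutamate transporter that loads synaptic vesicles in OSN. It lies on chromosome 7 at 51622006 to 51671119 (plus strand). It was at 291, 350.2 and 255 TPM in HT OSN and at 66.3 to 120 TPM (median 103) in MexHT OSN. With gg8 alone it was at 108 and 74.8 TPM in OSN, inside the range of MexHT OSN with both drivers. The negative cells of these gg8 mice held 121 and 160 TPM, so the OSN of both mice were lower, by less than in any other gene of the 9. HT negative cells held 187, 247 and 126 TPM, and MexHT negative cells 101, 151, 27.0, 76.1 and 16.4 TPM.

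Cartpt encodes the precursor of CART, a neuropeptide. It lies on chromosome 13 at 99898489 to 99901091 (minus strand). Cartpt was at 404, 636 and 346 TPM in HT OSN and at 67.6 to 199 TPM (median 152) in MexHT OSN. It was at 16.5 and 17.3 TPM in MexHT OSN with gg8 alone, against 422 and 642 TPM in the negative cells of those mice. In MexHT negative cells of gg8+OMP mice it was at 250.5, 370.2, 95.4, 321 and 83.1 TPM. These values were above the OSN of the same mouse in 4 of 5 mice, and Cartpt was the gene with the fewest mice showing more RNA in OSN. HT negative cells held 214 to 585 TPM.

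Umodl1 encodes an extracellular protein with a zona pellucida domain, and Faim2 an inhibitor of Fas-mediated cell death that is abundant in neurons. Umodl1 (chromosome 17, 30954640 to 31010710, plus strand) was at 1244, 1172 and 1040.5 TPM in HT OSN, the tightest of the 9 genes there with a 1.2-fold range. It was at 62.3 to 522 TPM (median 339.9) in MexHT OSN, at 22.7 and 23.9 TPM with gg8 alone, and at 557 and 936 TPM in the negative cells of the gg8 mice. Faim2 (chromosome 15, 99497012 to 99528165, minus strand) was at 405, 391 and 186 TPM in HT OSN and at 61.5 to 147 TPM (median 115) in MexHT OSN. With gg8 alone it was at 23.3 and 6.37 TPM, against 188 and 373 TPM in negative cells. In MexHT negative cells Umodl1 ran from 11.01 to 640 TPM and Faim2 from 10.2 to 193 TPM. In each of these 2 genes every MexHT OSN library was below every HT OSN library.

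The first question was which of these products were lowest with the Mex3a fusion relative to the construct without Mex3a. Differences are given as MexHT minus HT on the log2(TPM + 1) scale, with the standard error. In OSN they were -2.69 (0.82) for S100a5, -2.08 (0.55) for Umodl1, -1.93 (0.41) for Stom and -1.68 (0.20) for Slc17a6. They were -1.67 (0.41) for Stoml3, -1.66 (0.31) for Cartpt, -1.56 (0.30) for Faim2, -1.16 (0.20) for Pde4a and -0.88 (0.27) for Omp. These amount to 6.47-fold for S100a5 and 1.84-fold for Omp over all libraries. All 9 genes were lower with no overlap between groups, as were 16.9% of all genes tested. Nothing is read from this count, because this contrast chose the genes. The median of the 9 was -1.67, beside 0.03 over all genes tested. Leaving out MexHT OSN replicate 5 brought S100a5 to -2.04.

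Neighbours in this order could not be told apart. For each pair of neighbours the ratio of one gene to the other was taken within each library, and for all 8 pairs the MexHT and HT ranges overlapped. Ratios to Omp within the same library were also taken. Omp had the smallest difference of the genes compared (-0.88), so ratios to Omp are bound to be lower on average in MexHT OSN. They restate the contrast that chose the genes and are a description, with no test. The share of all genes whose ratio to Omp shifts is not given here. S100a5 stood at 1.04 to 1.15 times Omp in HT OSN and at 0.0576 to 0.544 times Omp in MexHT OSN. The ratios of Stom (0.858 to 0.931 against 0.306 to 0.543), Stoml3 (1.3 to 1.45 against 0.502 to 0.932) and Umodl1 (0.433 to 0.583 against 0.0913 to 0.327) did not overlap either. Cartpt, Faim2 and Slc17a6 also had lower ratios without overlap, whereas Pde4a overlapped (0.148 to 0.171 against 0.0997 to 0.189).

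**Figure D2:**
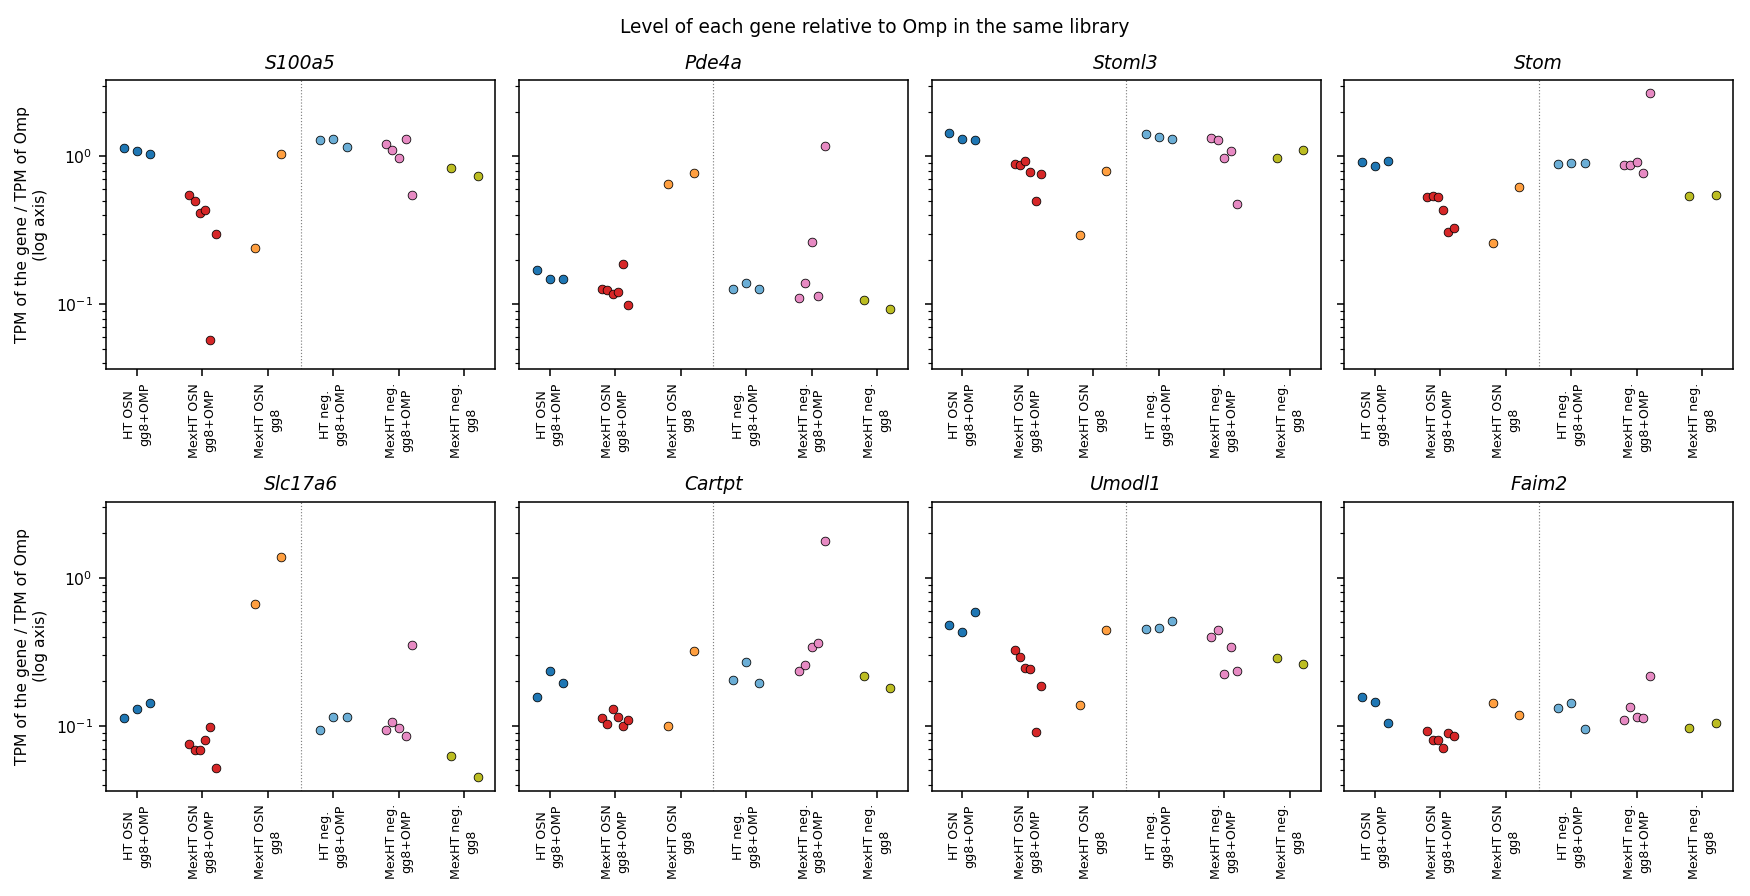
TPM of each gene divided by TPM of Omp in the same library (log axis), one point per library, OSN left of the dotted line and mCherry-negative cells right of it. In MexHT OSN with both drivers S100a5 lies at 0.0576 to 0.544, below every other gg8+OMP library, and in MexHT OSN with gg8 alone Slc17a6 and Pde4a lie at 0.65 to 1.39.

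The libraries of mCherry-negative cells did not enter the OSN contrasts, although the genes were listed with the levels of all groups known. All 9 genes had lower means in MexHT than in HT negative cells, from -0.97 (SE 0.56) for Cartpt to -2.44 (SE 1.18) for Umodl1, with a median of -1.73 beside -0.01 over all genes. Omp differed by -1.90 (SE 1.02), S100a5 by -2.22 (SE 1.25) and Stoml3 by -2.38 (SE 1.30). None of the 9 passed limma's test (Benjamini-Hochberg adjusted p 0.218 to 0.331), and 0% of all genes did. Of all genes 3465 had an unadjusted p under 0.05, among them Stom, Slc17a6 and Pde4a, and limma's voom fit on recovered counts called none of the 9 either. The groups overlapped for every one of the 9, while 5.07% of all genes were lower with no overlap. The 5 MexHT mice spread widely: mice 3 and 5 had the 2 lowest values for each gene. Without MexHT negative replicate 5 the differences shrank to -1.09 for Omp, -1.21 for S100a5, -1.32 for Stoml3, -1.54 for Umodl1 and -1.12 for Faim2. With the Xist level as a covariate, Cartpt moved to -1.67 and Faim2 to -2.37.

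**Figure D3:**
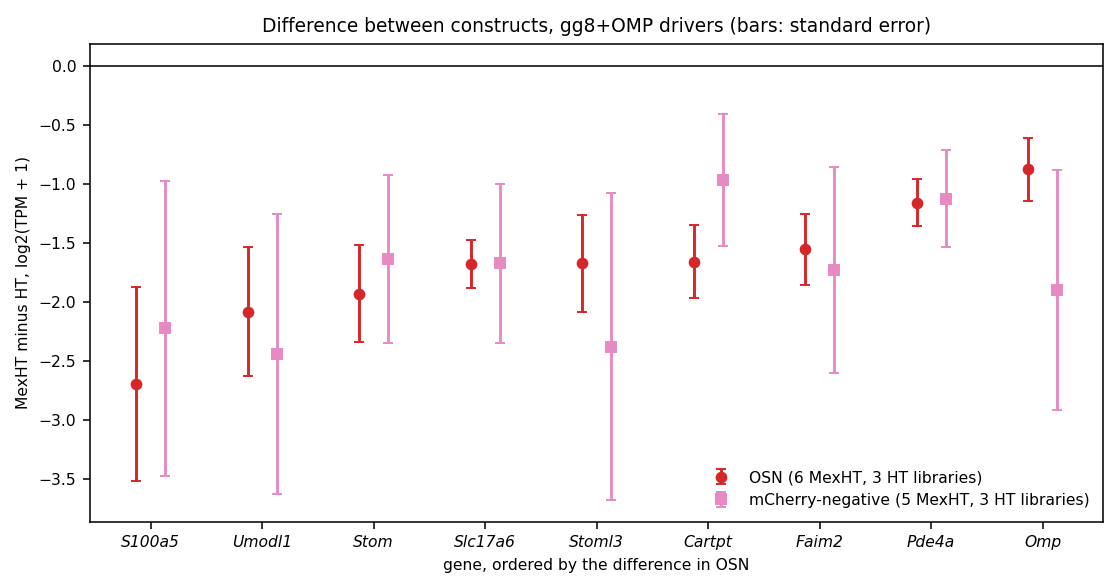
MexHT minus HT difference on the log2(TPM + 1) scale for 9 genes, in OSN (circles) and mCherry-negative cells (squares), gg8+OMP drivers, with standard errors. All 18 points lie below 0, and the errors in negative cells (0.41 to 1.30) exceed those in OSN (0.20 to 0.82).

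The next question was where the products were high. The OSN libraries of these comparisons also entered the contrasts that chose the genes. Limma's calls for these genes are therefore a description, and nothing is concluded from them. In the 3 HT mice each gene was higher in OSN than in negative cells of the same mouse, in 3 of 3 mice. The group mean differences ran from 0.27 (Cartpt) to 0.72 (Slc17a6 and Pde4a) on the log2 scale, and those of single mice from 0.01 (Cartpt) to 1.02 (Slc17a6). The main fits of OSN against negative cells, here and below, left out the pairing of fractions by mouse. Without that pairing no gene passed limma's test (adjusted p 0.105 to 0.644), and 2.18% of all genes were called higher. Slc17a6 was the one gene with an unadjusted p under 0.05, and voom called none. With the mouse as a replicate block, 4 genes were higher: Slc17a6 (limma adjusted p 0.0155), Pde4a (0.0168), Faim2 (0.0205) and Umodl1 (0.0477). In that fit 13.2% of all genes were called higher. Only Umodl1 and Slc17a6 had groups without overlap, as had 22.9% of all genes. Without HT negative replicate 3 the differences of Cartpt (-0.12) and S100a5 (-0.08) turned below 0. Without HT negative replicate 2 Slc17a6 passed (limma adjusted p 0.0328).

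In MexHT mice with both drivers the genes parted. Omp was higher in OSN in 5 of 5 mice, by 0.10 to 3.83, and Pde4a in 4 of 5, by -0.05 to 1.27. S100a5 was higher in OSN in 2 of 5 mice and Cartpt in 1 of 5. Pde4a was the only gene called (difference 0.68, SE 0.27, limma adjusted p 0.0431), whereas 35.8% of all genes were called higher. This call was lost in 11 of 18 alternatives, among them another scaling (adjusted p 0.0902) and the fit without both libraries of mouse 5 (0.0831). Omp, at 1.49 (SE 0.72, limma adjusted p 0.0859), passed with the mouse as a block (0.0266), beside Pde4a (0.00685), where 37.4% of all genes were called higher. Without MexHT negative replicate 5 the Omp difference was 0.68, and those of Stoml3 and Umodl1 moved from 1.16 and 0.90 to 0.10 and 0.01. The S100a5 difference of -0.19 (SE 1.06, limma adjusted p 0.884) changed sign without any one of negative replicates 1, 2 or 4 or OSN replicate 5 and was -1.21 without negative replicate 5, and that of Stom (0.19) without negative replicate 3 or 5. Whether the fraction difference itself differed between HT and MexHT mice was not tested.

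The ratio of S100a5 to Omp within a library was also compared between fractions. With both drivers MexHT OSN had 0.0576 to 0.544 and MexHT negative cells 0.548 to 1.31. These ranges nearly touched, and the lowest negative value came from mouse 5. In HT mice the ranges did not overlap either (1.04 to 1.146 in OSN and 1.149 to 1.304 in negative cells). In gg8 mice they overlapped (0.239 and 1.04 in OSN, 0.736 and 0.836 in negative cells). Cartpt stood at 0.0992 to 0.131 times Omp in MexHT OSN and 0.233 to 1.77 in MexHT negative cells. In HT mice its ranges overlapped (0.156 to 0.235 in OSN and 0.196 to 0.271 in negative cells). In the negative library of mouse 5, where Omp was lowest, Stom (2.66 times Omp), Cartpt (1.77), Pde4a (1.18) and Slc17a6 (0.351) were high relative to Omp, and S100a5 (0.548) and Stoml3 (0.474) were low. These ratios are descriptions.

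With gg8 alone the direction was opposite. In both mice all 9 genes were lower in OSN than in negative cells. The difference was -5.87 (SE 0.38) for Stoml3, -5.43 (0.35) for S100a5, -5.20 (0.37) for Stom and -4.89 (0.33) for Umodl1. It was -4.87 (0.32) for Cartpt, -4.79 (0.56) for Omp and -4.31 (0.62) for Faim2. The OSN were thus 58.3-fold lower in Stoml3 and 19.9-fold lower in Faim2 on this scale. Pde4a (-1.95, SE 0.49) and Slc17a6 (-0.62, SE 0.32) were nearer to 0. Limma's threshold was met by 7 of the 9, the exceptions being Pde4a and Slc17a6, and by 7.2% of all genes in that direction. Nothing is read from this count, because these OSN libraries were used to choose the genes. Within each library, Pde4a stood at 0.65 and 0.776 times Omp in OSN against 0.107 and 0.0929 in negative cells. Slc17a6 stood at 0.661 and 1.39 times Omp against 0.0625 and 0.0448.

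These values rest on 2 mice. Without negative replicate 1, negative replicate 2 or OSN replicate 2 none of the 9 met the threshold, nor did any other gene, and without OSN replicate 1 it was met by 8. The Omp difference was -5.58 without OSN replicate 1 and -3.99 without OSN replicate 2, that of Faim2 was -5.17 and -3.45, and that of Pde4a was -2.62 and -1.29. No direction changed.

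**Figure D4:**
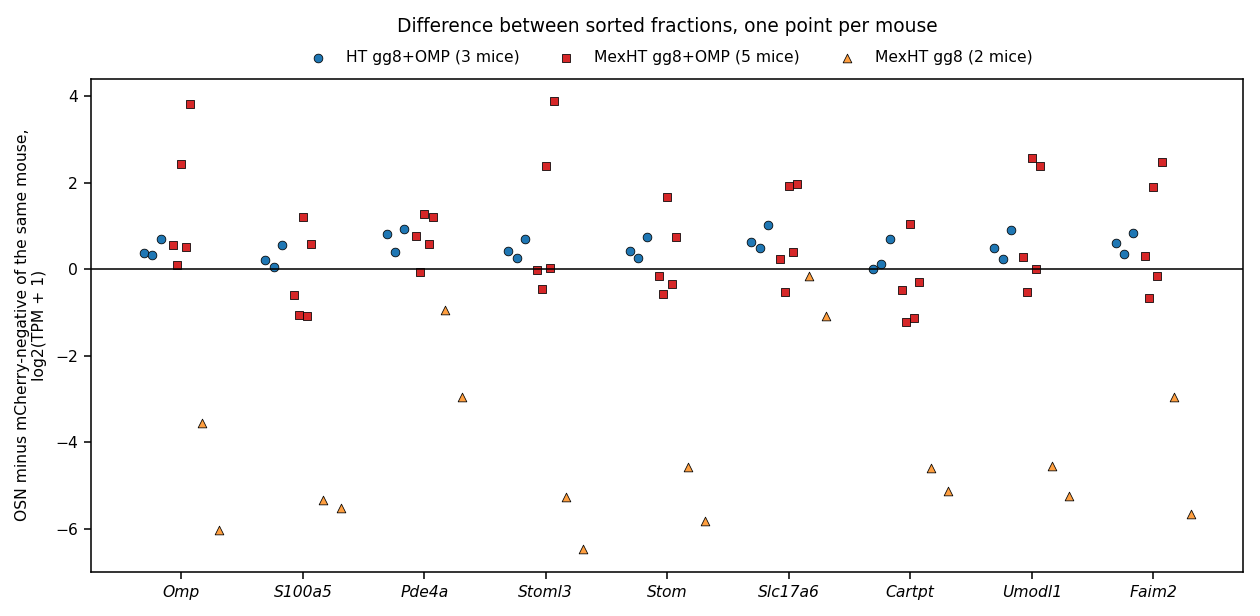
OSN minus mCherry-negative cells of the same mouse on the log2(TPM + 1) scale, one point per mouse, for 3 HT and 5 MexHT gg8+OMP mice and 2 MexHT gg8 mice. HT mice lie between 0.01 and 1.02, MexHT gg8+OMP mice spread on both sides of 0 except for Omp, and gg8 mice lie below 0, nearest to it for Slc17a6.

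The last question was which products were lowest with the driver of immature neurons. MexHT OSN with gg8 alone were set against MexHT OSN with both drivers, across tables that were normalized separately. The difference was -4.39 for Stoml3, -3.83 for Stom, -3.73 for Omp, -3.48 for Umodl1, -3.03 for S100a5, -2.99 for Cartpt and -2.98 for Faim2. It was -1.26 for Pde4a and -0.03 for Slc17a6. Of the 9, 7 were lower with no overlap, as were 12.4% of all genes, a share from which nothing is read here. S100a5 overlapped because of OSN replicate 5 of the gg8+OMP mice, without which its difference was -3.68. The median over the 9 genes was -3.03, beside 0.11 over all genes. In the order of falls, the within-library ratio parted Stoml3 from Stom, Faim2 from Pde4a and Pde4a from Slc17a6, and no other neighbours. The differences of Omp, Faim2 and Pde4a depended on the gg8 library: without OSN replicate 1 they were -4.53, -3.84 and -1.92, and without OSN replicate 2 -2.94, -2.12 and -0.59. Slc17a6 changed sign in 4 of 8 such fits, between -0.29 and 0.24.

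Side by side, the differences with the fusion and between drivers were -2.69 and -3.03 for S100a5, -0.88 and -3.73 for Omp, -1.67 and -4.39 for Stoml3, and -1.68 and -0.03 for Slc17a6. The MexHT OSN libraries with both drivers enter these comparisons with opposite signs, so the values are not independent and no likeness between them is computed.

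The 9 genes did not move as one block. Over the 17 gg8+OMP libraries, the root mean square difference between the centred log2 profiles of a pair was smallest for Umodl1 and Stoml3 (0.34) and largest for S100a5 and Pde4a (1.43). Faim2 lay nearest to the mean profile of the 9 (0.24) and S100a5 farthest (0.83). Among 11042 other genes averaging 10 TPM or more, whose median difference from that profile was 1.35, the nearest were Plekhb1 (0.22), Ctxn3 (0.23), Fam213b (0.25), Chga (0.26) and Cngb1 (0.26). Cngb1 encodes a subunit of the olfactory cyclic nucleotide-gated channel, and Chga a protein of secretory granules. Plekhb1 had a mean of 1386 TPM in HT OSN and 545 TPM in MexHT OSN. All these libraries share the depth and the sorting that the members have.

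Other genes of the mature neuron were taken from a list of 15 that was written with earlier results known. With the fusion in OSN, 12 of 15 passed limma's test as lower, as did 16.8% of all genes, and none as higher. Calb2 was the 1 gene above 0 (0.28, SE 0.13, limma adjusted p 0.116). It was at 1034 to 1432 TPM in MexHT OSN and 896 to 993 TPM in HT OSN, with no overlap. The median of the list was -1.39, beside 0.03 over all genes. Adcy3, the cyclase of the odorant cascade, differed by -2.72 (SE 0.38, limma adjusted p 0.000765), and Cnga4, a channel subunit, by -2.48 (SE 0.44, adjusted p 0.00221). Slc24a4, a calcium exchanger, differed by -2.09 (SE 0.37, adjusted p 0.00219). In negative cells 0 of 15 passed, and 15 of 15 were below 0. In gg8 mice 15 of 15 were below 0 in OSN and 11 were called lower by limma, as were 7.2% of all genes. They were led by Gnal, the G protein of the cascade (-5.13, SE 0.44, limma adjusted p 0.00779). Between drivers 13 of 15 were lower with no overlap, as were 12.4% of all genes. The median of the list was -2.84 there, beside 0.11 over all genes.

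Of 15 genes of immature OSN, 11 were called higher and 1 lower with the fusion in OSN by limma, with a median of 1.02. Of all genes 19.9% were called higher and 16.8% lower. Gng8 (1.53, SE 0.12, adjusted p 7.3e-05), the G protein subunit from whose gene gg8-tTA is driven, and Dpysl5 (1.43, SE 0.23, adjusted p 0.00152), which acts in axon growth, led those called higher. Ebf2 was the 1 called lower (-0.74, SE 0.17, limma adjusted p 0.00863). Dcx was also below 0 (-0.44, SE 0.41, limma adjusted p 0.412). In negative cells 0 of the 15 were called with the fusion, with a median of 0.40. In OSN against negative cells of gg8 mice the median was 0.14. There 1 was called higher by limma, as were 185 of 16490 genes. Between drivers 8 of 15 were below 0, with a median of -0.01. Without overlap 3 were higher, as were 2396 of 15544 genes. Relatives of the members were mixed with the fusion in OSN: of 17 tested, 5 were called lower and 1 higher. Of all genes 16.8% were called lower and 19.9% higher there, and nothing is read from these counts. S100a6 (-2.22, SE 0.33, limma adjusted p 0.000999) and Pde4c (-1.67, SE 0.28, adjusted p 0.00187) were lower. Slc17a7, another vesicular glutamate transporter, was higher (1.46, SE 0.52, adjusted p 0.0477), from 2.25 to 9.62 TPM.

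Markers of other cells differed between some of these groups. With the fusion in OSN, limma called 16.8% of all genes lower and 19.9% higher. The counts called in OSN below stand beside these shares. Immune markers summed to 1313 to 5446 TPM in HT OSN and 311 to 607 TPM in MexHT OSN, and 8 of 10 were called lower by limma. In negative cells they summed to 1479 to 4296 TPM (HT) and 3394 to 4966 TPM (MexHT). There 8 of 10 were above 0 with the fusion and 0 were called. Connective tissue and vessel markers summed to 95.1 to 325 TPM in HT OSN, 128 to 246 TPM in MexHT OSN and 42.3 to 57.2 TPM in gg8 OSN. In negative cells they summed to 7832 to 18394 TPM in HT mice, 11079 to 23576 TPM in MexHT mice and 5214 to 5501 TPM in gg8 mice. Progenitor and cycling genes summed to 138 to 183 TPM in HT OSN and 240.2 to 918 TPM in MexHT OSN, and 3 of 8 were called higher. Basal cell markers summed to 169 to 235 TPM in HT negative and 267 to 1206 TPM in MexHT negative cells, where 0 of 5 were called. In OSN they went the other way, at 37.9 to 40.4 TPM (HT) and 13.6 to 28.2 TPM (MexHT), and 1 of 4 tested was called lower. Sustentacular markers (1 of 6 called lower) and ensheathing glia markers (0 of 5 called) had sums in MexHT OSN of 229 to 765 TPM and 27.9 to 337 TPM, against 443 to 1850 TPM and 34.2 to 44.9 TPM in HT OSN. Red blood cell markers, of which 3 of 5 were in the gg8+OMP table, summed to 70.9 to 80.4 TPM in HT OSN and 52.2 to 150 TPM in MexHT OSN. The gg8 table held 1 of the 5, Alas2, an enzyme of heme synthesis, at 6.42 to 17.5 TPM in OSN and 125 to 154 TPM in negative cells. Alas2 differed by -3.58 (SE 0.49, limma adjusted p 0.0205) between these fractions and by -2.99 between drivers, with no overlap. In both it moved in the same direction as Stom, which red blood cells also hold. In the other comparisons the signs were opposite. With the fusion, Alas2 differed by 0.29 in OSN and 1.05 in negative cells, and Stom by -1.93 and -1.64. Between OSN and negative cells of gg8+OMP mice, Alas2 differed by -0.76 (HT) and -1.53 (MexHT), and Stom by 0.48 and 0.19. None of these lists had every marker at 0 in a group, though Elane, S100b and Frzb were under 1 TPM in both gg8 OSN libraries, and Hba-a2 and Hbb-bs in every gg8+OMP library. Xist was at 1 TPM or more in 6 of 6 MexHT OSN and 5 of 5 MexHT negative libraries, and in 1 of 3 HT libraries of each fraction. The part of each of these in the differences of the mature neuron products was not tested.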

How the data were processed

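The authors deposited TPM tables, 1 for 17 gg8+OMP libraries and 1 for 4 gg8 libraries. The submitters' processing notes name mm10, FastQC, cutadapt, STAR and bedtools. The counting program, annotation and use of strand are not given in the sources used here. Per the labels' protocols, cells were dissociated with papain and RNA was extracted with TRIzol and prepared with a stranded total RNA kit. Genes whose symbols had become dates (27) were left out. Comparisons between groups used limma 3.58.1 in R 4.3.3 (eBayes with a mean trend, two-sided) on log2(TPM + 1), for genes averaging 1 TPM or more in the compared groups. P-values were adjusted by Benjamini-Hochberg over all such genes, with a threshold of 0.05. Fold changes on this scale understate changes of low genes. The fits were tested on simulated data.

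The steps of the TPM values gave whole counts, within 0.01, for 100% of genes with both drivers (0% with a wrong scale) and 99.86% with gg8 (5.31%). They gave the depth, a floor of 3 counts and the voom alternative. No molecular identifiers are described, so floors cover counting error only.

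Members and lists were chosen with earlier results of these data known. Named besides the members are up to 4 genes per list and comparison with the largest difference among those passing, the 5 nearest profiles, and Mex3a. Per the labels, same-numbered OSN and negative libraries come from the same mouse. Their deviations from the group means correlated at 0.183 to 0.475 in HT, -0.113 to 0.421 in MexHT and 0.0178 in gg8 mice. Nothing says that same-numbered HT and MexHT libraries are related, though in negative cells all 3 such pairs correlated (0.23 to 0.417). Positions are from GENCODE vM21 (GRCm38) and promoters from RefSeq (GRCm38.p6).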

Additional observations from a re-analysis of the deposited data

Results flagged for a closer look

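Among the 6 MexHT OSN libraries with both drivers, the library of mouse 5 stood apart from the others for 4 genes. Omp was at 682 TPM there, S100a5 at 39.3 TPM, Stoml3 at 342 TPM and Cartpt at 67.6 TPM, each the lowest value and farther from the next library than Dixon's limit allows at 95%. There were 20 such checks, and chance alone gives about 1 in 20. The 4 values come from 1 library, which also had the highest Mex3a level of the 6 (1271 TPM). The part of the Mex3a level in these values was not tested.

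The difference between OSN and mCherry-negative cells in Omp had opposite signs under the 2 drivers. It was above 0 in 5 of 5 MexHT gg8+OMP mice and below 0 in 2 of 2 MexHT gg8 mice, with medians 5.36 apart on the log2(TPM + 1) scale. This difference was not tested, and driver, library date and table cannot be told apart.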

How the results depend on the processing

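The median difference of the 9 genes between constructs in OSN kept its direction in all 15 alternatives (-1.87 to -1.32), as did that between drivers in 11 (-3.68 to -2.92). With the replicate block, to which MexHT replicates 4 to 6 add nothing because no HT library has their number, the differences between constructs in OSN were smaller, at -1.75 for S100a5, -1.37 for Umodl1, -1.33 for Stom and -0.58 for Omp. In negative cells 0 of 9 were called under all 15, the replicate block included, and 0 to 24 genes of all. For OSN against negative cells in HT mice, 4 genes were called with the replicate block and 0 to 1 without one replicate. Over all genes the count went from 1923 to 4967 with the block and 1055 with voom. In MexHT mice 1 was called, 2 with the replicate block, 0 under median-of-ratios scaling, 0 with voom, 0 without mouse 5, and 0 to 3 without one replicate. In gg8 mice, where nothing is read from the calls, 7 met the threshold, 8 with the block and 0 to 8 without one replicate. There, a pseudocount of 0.1 left 646 of 1372 genes called. Where a gg8 replicate was left out, the lone library was assumed to vary like the other group. The block changed no other call in tested comparisons. The voom fits and the fit without mouse 5 were added after seeing the data. Depth limits Kcnk9.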
